A study of Mus musculus with 3 samples.

Results

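Apolipoproteins and the genes of cholesterol efflux were followed here in mouse bone marrow stromal cells during osteogenic induction. The group comprised 8 genes of 20279 with a named probe: Apoe, Apoc1, Clu, Abca1, Abcg1, Pltp, Lrp1 and Scarb1. They were chosen from their own measured signals at day 0, day 3 and day 21 as well as from their role, so the differences between days below are a description and support nothing by themselves. The 8 genes had 9 probes and 18 spots on each array.

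The study used primary mesenchymal stem cells (MSCs), stromal cells able to form bone, cartilage and fat, taken from the bone marrow of male mice aged 8 weeks. Cells were grown in αMEM with 10% fetal bovine serum, penicillin and streptomycin, and those labelled MSC day 0 received no osteogenic agent. Cells labelled Osteoblast day 3 and Osteoblast day 21 were kept for 3 or 21 days with 50 µg/mL ascorbic acid, a cofactor of collagen maturation, and 10 mM β-glycerophosphate, a phosphate donor for mineral. Each group had 1 one-colour Agilent array, so no difference had a replicate check, no test was possible and every value compares single arrays. The genotype, strain, number of mice and purity of the cells are not given in the sources used here, and serum in the medium itself carries lipoproteins.

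Cells rid themselves of cholesterol by passing it to apolipoproteins outside the cell. ABCA1 loads cholesterol and phospholipid onto lipid-poor apolipoproteins such as apolipoprotein E, and ABCG1 adds cholesterol to particles that already carry lipid. Phospholipid transfer protein (Pltp) moves phospholipid between lipoproteins, while LRP1 and the scavenger receptor SR-B1 (Scarb1) bind lipoproteins at the cell surface. The liver X receptors (LXRs), nuclear receptors for oxidised cholesterol, are known activators of Abca1, Abcg1, Apoe, Apoc1 and Pltp.

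Of the 20279 genes, 63.8% to 66.2% were well above background on an array, by the scanner software's own mark. Osteoblast genes were above background in 6, 8 and 10 of 12 cases at day 0, day 3 and day 21, with Sp7, a transcription factor that defines the osteoblast lineage, and Sost, an osteocyte gene, not above background on any array. All 11 stromal genes listed were above background on the 3 arrays. One slide carried the arrays of day 0 and day 21, and another carried that of day 3, so the day 3 time point and its slide cannot be told apart. Signals are linear intensities as deposited. Differences are log2 of the later over the earlier day, after each array's 75th percentile was subtracted. The SD of such a difference was 0.13, derived from repeated spots within an array, over 234 probes with 10 spots each, all above background. It covers neither error between arrays, such as labelling and hybridisation, nor the cultures, and dim probes are not in it. More cells of a type and more RNA per cell cannot be told apart in these bulk samples.

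Promoter sequence was at hand for Apoe, Abca1, Pltp and Lrp1, in a RefSeq table of the build GRCm38.p6. The 250 bases before the transcript start of Abca1 and of Apoe are shown, an exporter and its lipid acceptor whose transcripts were both higher on each later day. The Abca1 window is chr4:53159896-53160145 and the Apoe window, the most upstream of 3 in the table, is chr7:19699189-19699438, both on the minus strand. Capitals mark, from the 5′ end, an E-box, a repeat of the kind that LXR pairs bind, and a TATA box.
Abca1: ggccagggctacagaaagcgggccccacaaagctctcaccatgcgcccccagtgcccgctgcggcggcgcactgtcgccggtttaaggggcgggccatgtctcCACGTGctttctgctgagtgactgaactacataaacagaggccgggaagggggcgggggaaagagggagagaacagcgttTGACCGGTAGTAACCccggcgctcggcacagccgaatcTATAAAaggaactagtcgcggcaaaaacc
Apoe: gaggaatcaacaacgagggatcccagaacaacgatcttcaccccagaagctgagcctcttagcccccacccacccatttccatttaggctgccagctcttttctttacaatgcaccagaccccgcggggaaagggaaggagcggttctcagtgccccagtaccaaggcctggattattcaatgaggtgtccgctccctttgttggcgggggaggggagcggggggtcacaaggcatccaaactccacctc

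The repeat in the Abca1 window lay 67 to 53 bases before the start and reads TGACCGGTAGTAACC, which matches GGTNANNNNNGGTNA on the opposite strand. These letters occurred in 0.621% of 32851 promoter windows of the same length, searched on both strands. The E-box CACGTG lay 147 to 142 bases before the start (6.02% of windows hold one) and TATAAA lay 29 to 24 bases before it (12.4% of windows). The GC box GGGCGG, present in 32.7% of windows, was found at 2 places in the Abca1 window and at 1 place each in those of Pltp and Lrp1. The Apoe window shown held none of these letters, and another Apoe window held TATAAA on both strands, at overlapping positions. The motifs were chosen after these sequences had been seen, and a match describes letters, not a bound site.

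The 3 apolipoprotein genes had the largest differences of the 8 at day 21 against day 0. Apoe, whose protein carries cholesterol between cells and binds lipoprotein receptors at the cell surface, gave a signal of 315.5 before induction, 2946 at day 3 and 43789 at day 21. Its probe was spotted 10 times on each array. The spots used ranged from 284 to 337 at day 0 (7 spots), from 2853 to 3039 at day 3 and from 41674 to 45927 at day 21, so the spots of different days did not overlap. Apoe was 9.21-fold higher at day 3 than at day 0, a log2 difference of 3.20, and 125-fold higher at day 21 (6.97). In the order of measured differences Apoe stood 22nd from the top of 12387 genes at day 21 and 112th of 12455 at day 3.

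Clu encodes clusterin (apolipoprotein J), a secreted chaperone that also travels on lipoproteins. Its signal was 428 before induction, 7852 at day 3 and 62926 at day 21, again lowest before induction and highest last. Clu was 18.1-fold higher at day 3 (4.18) and 133-fold higher at day 21 (7.05), where quantile normalization gave 7.69. Between day 3 and day 21 the further difference was 2.87, smaller than that of Apoe in the same interval (3.77), and 3.52 with quantile normalization. Of the log2 difference between day 0 and day 21, 59.2% was thus present by day 3 for Clu and 46.0% for Apoe. Such shares, here and below, depend on the scaling. With spike-in scaling Clu differed by 3.61 at day 3 and 6.79 at day 21, and Apoe by 2.63 and 6.70.

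Apoc1 encodes a small apolipoprotein that restrains lipoprotein lipase and receptor uptake, and it lies beside Apoe in the genome. Its signal was 3.43 at day 0, not well above background, then 25.4 at day 3 and 3732 at day 21. Apoc1 was 134-fold higher at day 21 than at day 3 (7.07), the 8th largest of 12739 measured differences; with normexp background correction the difference was 5.31. Against day 0 it has only a bound, set by the lowest signal well above background on that array (10.2). It was at least 2.46-fold higher at day 3 and at least 330-fold higher at day 21. The day 3 bound passed 2-fold by little and was under it with normexp (log2 0.38) and with spike-in scaling (0.73); normexp also lowered the day 21 value from 8.37 to 5.69.

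**Figure D1:**
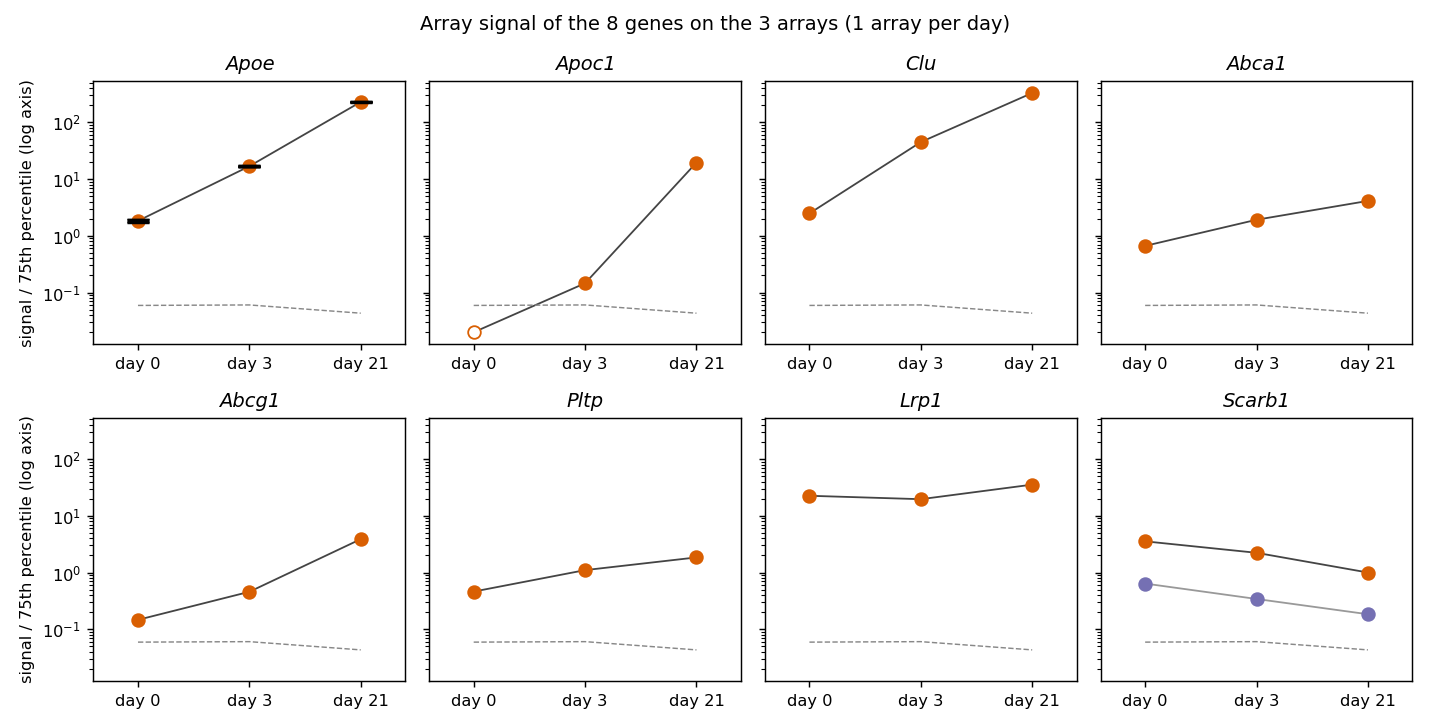
Signal divided by the array's 75th percentile (vertical log axis) for the 8 genes at day 0, day 3 and day 21, 1 array per day; filled circles are well above background, the open circle is not, black ticks are single Apoe spots, orange and purple in the Scarb1 panel are its 2 probes, and the dashed line is the lowest signal well above background. Apoe, Apoc1, Clu, Abca1, Abcg1 and Pltp climb at each step, Lrp1 stays within 2-fold, and both Scarb1 probes descend.

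Both exporters were higher on each later day, Abcg1 by more than Abca1 at day 21. Abca1 gave 114 at day 0, 335 at day 3 and 787 at day 21. It was 2.89-fold higher at day 3 (1.53) and 6.21-fold higher at day 21 (2.64). Its second step, from day 3 to day 21, was 2.15-fold. The first step fell just under 2-fold with spike-in scaling (0.96) and the second with normexp (0.94). In all, 58.1% of the log2 difference for Abca1 was present by day 3. With spike-in scaling the day 3 value of 0.96 stood beside 2.37 at day 21, so that less of it was.

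Abcg1 started dim, with a signal of 25.2 at day 0 against the lowest signal above background of 10.2, and gave 79.8 at day 3 and 739 at day 21. It was 3.12-fold higher at day 3 (1.64) and 26.5-fold higher at day 21 (4.73), with 34.8% of the difference present by day 3. The later step was 8.48-fold (3.08), the 86th largest of 12739. With normexp, which compresses dim probes through its offset of 50, Abcg1 differed by 0.82 at day 3 and by 3.35 at day 21.

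Pltp, the phospholipid transfer protein that remodels high-density lipoprotein, showed a smaller change spread over both intervals. Its signal was 79.4 before induction, 192 at day 3 and 352 at day 21. Pltp was 2.39-fold higher at day 3 (1.26) and differed by 2.00 on the log2 scale at day 21. The step from day 3 to day 21 was 1.68-fold (0.74), under the 2-fold rule, although spike-in scaling placed it at 1.05. The day 3 call was lost with normexp (0.77) and with spike-in scaling (0.69).

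The receptors did not follow the apolipoproteins. Lrp1, a large endocytic receptor for apolipoprotein E and many other ligands, gave 3886, 3427 and 6764 at day 0, day 3 and day 21. Day 0 and day 3 differed by -0.20, within the SD of 0.20 that the scanner's error model gives for this difference. Lrp1 at day 21 was 1.57-fold above day 0 (0.65) and 1.81-fold above day 3 (0.85), under the 2-fold rule in both cases. Spike-in scaling moved the latter past it (1.15).

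Scarb1, which encodes SR-B1, the receptor for high-density lipoprotein that takes up cholesteryl ester, was the single gene of the 8 that fell past 2-fold. Its brighter probe gave 611 at day 0, 389 at day 3 and 191 at day 21, and its dimmer probe gave 110, 59.6 and 35.1. Both probes match the same transcript accession and gave the same order of days. The brighter probe was 3.55-fold lower at day 21 than at day 0 (-1.83) and the dimmer one 3.47-fold lower (-1.80). At day 3 the differences were -0.67 and -0.90, short of 2-fold for both probes, whereas spike-in scaling gave -1.24 for the brighter probe. From day 3 to day 21 the brighter probe passed 2-fold (-1.16) and the dimmer one did not (-0.89). That second step was likewise under 2-fold with normexp (-0.83) and with spike-in scaling (-0.85).

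**Figure D2:**
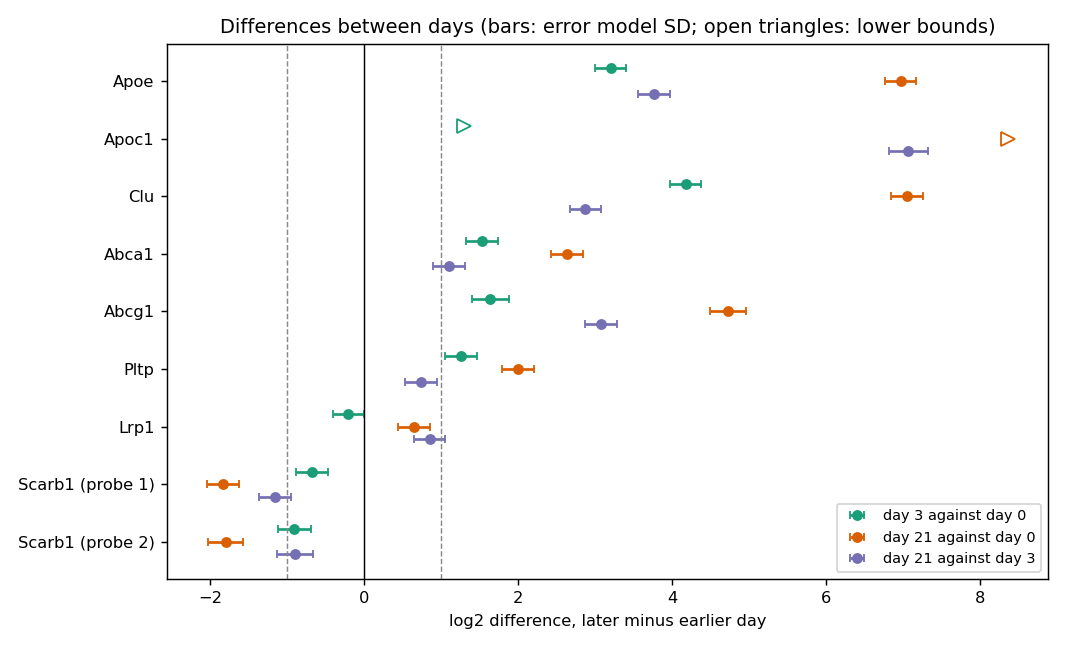
Log2 difference between days (horizontal axis) for each probe of the 8 genes, with bars for the SD from the scanner's error model, open triangles for lower bounds and dashed lines at 2-fold. Apoe, Clu and Apoc1 lie farthest to the right, with day 21 against day 0 at 6.97, 7.05 and at least 8.37, and both Scarb1 probes lie left of 0.

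At day 3 against day 0, 5 of the 7 measured members were at least 2-fold higher and none was 2-fold lower, and Apoc1 was higher by its bound. Over all measured genes 7.73% were higher and 7.85% lower by the same rule, and 9.32% were higher by value or bound. The median difference over the 8 genes was 1.42, with Apoc1 at its bound, against -0.08 over all measured genes. At day 21 against day 0, 5 of 7 were higher, Scarb1 was lower and Apoc1 was higher by its bound. Over all genes 12.8% were higher, 16.8% lower and 15.4% higher by value or bound, and the medians were 3.68 for the 8 genes and -0.21 for all. At day 21 against day 3 all 8 were measured, 5 were higher (7.75% of all genes; 8.99% by value or bound) and Scarb1 was lower (7.11%), with medians of 1.99 and -0.10. Since the members were chosen from these contrasts, nothing is read from their counts against these shares. The comparisons share arrays in pairs.

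The choice of scaling moved the level of all genes. With spike-in scaling the median of all genes shifted by -0.57 at day 3 against day 0, by -0.27 at day 21 against day 0 and by 0.30 between day 21 and day 3. The share of 2-fold calls that were higher went from 49.6% to 13.1% at day 3 against day 0, from 43.2% to 28.2% at day 21 against day 0 and from 52.1% to 77.5% at day 21 against day 3. Scaling on spots above background on all arrays gave 54.4% at day 21 against day 0 and 62.6% between day 21 and day 3, and no scaling gave 64.5% for the latter. No member difference changed sign under any alternative run.

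The LXRs and related transcription factors were measured on the same arrays. Nr1h3, encoding LXRα, gave 55.2 at day 0, 809 at day 3 and 2576 at day 21, and was 42.2-fold higher at day 21 (5.40). Nr1h2, encoding LXRβ, gave 3673, 3520 and 3832 and differed by -0.09 at day 21. Nr1h3 was higher on each later day, and Nr1h2 stayed within the spread of repeated spots. The part of either receptor in the members' differences was not tested. Of 12 measured LXR, RXR and PPAR receptors and co-regulators, 3 were 2-fold higher at day 21 and none was lower. Beside Nr1h3 these were Pparg, the main regulator of fat cell formation (1.92), and Rxra, the common partner of these receptors (1.15), while Ncoa1 reached 0.89. Ppargc1a was at least 6.49-fold higher by a bound. At day 3, Nr1h3 was the single 2-fold difference among them (3.85).

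Other genes listed as LXR targets were counted by the same rule. Of 13 measured, 9 were at least 2-fold higher and 0 lower at day 21, and 4 were higher at day 3, with a day 21 median of 1.71. Over all measured genes 12.8% were higher and 16.8% lower at day 21, and 7.73% were higher at day 3. This list, like the others here, was chosen with earlier results of these data known, so nothing is read from its counts. Apod, a lipocalin carried on high-density lipoprotein, was 244-fold higher (7.93), Lpl, the lipase that anchors to the vessel wall, 60.1-fold (5.91), and Scd1, a fatty acid desaturase, 17.4-fold (4.12). Mylip, which encodes a ubiquitin ligase, rose by 1.33 on the log2 scale, and Srebf1, the lipogenic regulator, differed by 0.75. Lpcat3 (0.61), Scd2 (0.29) and Arl4c (-0.69) were likewise under 2-fold. Lpl and Nr1h3 stand on other lists as well, and Lpl is also an adipocyte marker.

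Other apolipoprotein genes went both ways. Of 7 measured at day 21 against day 0, Apod was higher and 4 were 2-fold lower, and by a bound 5 more were higher and 1, Apoh, was lower. The median was -1.56, and -0.73 with normexp. Apol9b (-2.95), Apol9a (-2.83) and Apobr, a receptor for apolipoprotein B (-2.22), led the lower members, and the 2 Apol9 genes are near-identical copies whose single values are uncertain. By a bound, Saa3, an acute-phase apolipoprotein, was at least 62.6-fold higher and Apoc3 at least 57.4-fold higher. At day 3, 2 of 8 were higher and 1 was lower.

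Among 12 measured ABC lipid transporters other than the members, 4 were 2-fold higher and 1 was lower at day 21, with a median of 0.66. Abcb1a was higher by 3.08, Abcg4, a close relative of Abcg1, by 2.73, Abca8b by 2.61 and Abcg2 by 1.21. Abca9 (at least 18.4-fold) and Abca8a (at least 5.40-fold) were higher by a bound, and Abcc1 differed by -1.18. Abcb1a has a close copy, Abcb1b, and its value is uncertain for that reason.

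Uptake receptors of other families divided. Of 17 measured genes of endocytic lipoprotein receptors related to Lrp1, sortilin receptors and chaperones, 4 were higher and 2 lower at day 21. Dab2, an endocytic adaptor (2.46), Sort1 (1.90) and Lrp4 (1.80) were among those higher. By a bound, Lrp8, another receptor for apolipoprotein E, was at least 8.39-fold lower and Sorl1 at least 3.11-fold higher; bounds counted 2 lower and 1 higher in all. Of 8 measured scavenger receptors and SR-B1 partners, 5 were higher and 0 lower, led by Scara3 (3.63), Olr1 (2.51), Colec12 (2.18) and Cxcl16 (1.90), with a median of 1.45. Scara5, a ferritin receptor, was at least 1078-fold higher and Cd36, a fatty acid and lipoprotein receptor, at least 56.5-fold higher, whereas Scarf1 (log2 -2.59) and Msr1 (-1.59) were lower by bounds.

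Of 11 measured lipases, remodelling enzymes and their regulators, 3 were higher and 1 lower at day 21: Lpl, Angptl4, an inhibitor of Lpl (4.68), Pla2g15 (1.75) and Pla2g7 (-1.64). Lcat, which esterifies cholesterol on lipoproteins, was at least 4.79-fold higher by a bound. Of 26 measured genes of intracellular cholesterol transport, esterification and oxidation, 2 were higher and 2 lower. Those were Cyp7b1 (3.20) and Hsd3b7 (1.94), of oxysterol and bile acid metabolism, and Tmem97 (-1.27) and Ch25h (-1.12). Lipe, a lipase of fat cells that also cleaves cholesteryl ester, was at least 33.1-fold higher, and Soat2 was at least 11.4-fold lower. Of 14 proteoglycans and lectins, 5 were higher and 4 lower, including Gpc3 (2.28), Dcn (2.26), Sdc3 (-2.12) and Lgals1 (-1.71). Over the 163 listed genes with a named probe, 117 were measured at day 21 against day 0, of which 33 were higher (28.2%, against 12.8% of all genes) and 14 lower (16.8% of all genes were). Bounds added 15 higher and 6 lower. These lists were chosen with earlier results of these data known, so nothing is read from their counts against the shares of all genes.

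**Figure D3:**
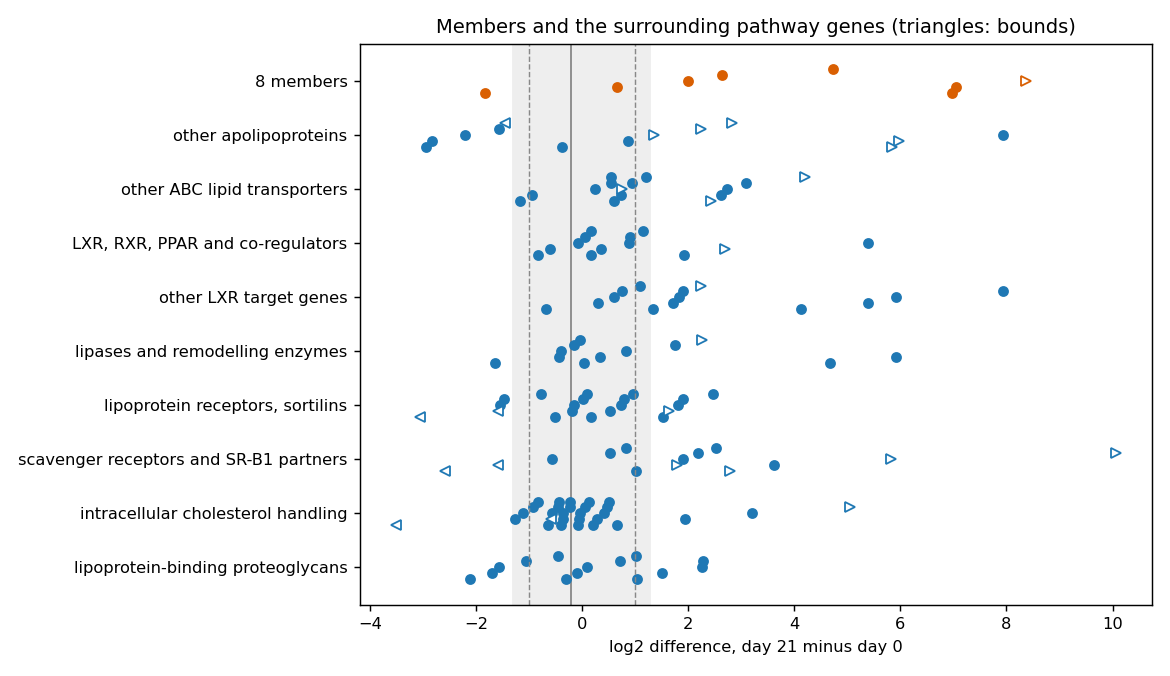
Log2 difference at day 21 against day 0 (horizontal axis) for the 8 members (orange) and for the genes of 9 surrounding lists (blue); circles are measured on both arrays, triangles are bounds pointing in the direction of the true value, the grey band spans the 10th to 90th percentile of all 12387 measured genes (-1.31 to 1.27), the grey line is their median and dashed lines mark 2-fold. Apoe, Clu, Abcg1, Abca1 and Pltp lie right of the band, Lrp1 within it and Scarb1 left of it.

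The neighbourhood of Apoe on chromosome 7 was read in the order of the RefSeq table. Apoc4, next but one to Apoe on the side of Apoc1, was not above background at day 0 or day 3 and gave 53.7 at day 21, at least 4.75-fold higher. On the other side Tomm40, a mitochondrial import pore, differed by -1.42 at day 21, Nectin2 by -0.23 and Bcam by -0.27. Clptm1, beyond Apoc4, differed by -0.09. Bcl3, a cofactor of NF-κB 5 genes away, was higher by 3.72 at day 3 and by 3.29 at day 21. Among the neighbours with a named probe, the higher values beside Apoe were those of Apoc1 and Apoc4, and the nearest gene on the other side was lower. The genes between Apoc4 and Clptm1 in that order had no named probe.

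The genes with the most similar course were found by the distance between the 3 log2 values, each centred on its gene's mean, among 11839 genes above background on all arrays. For Apoe these were Rarres2 (chemerin, a secreted adipokine; distance 0.41), Comp (a cartilage matrix protein; 0.48) and Mrap (0.62). For Clu they were Aldh1l1 (0.040), Mia (0.24) and Adh1 (0.31), and for Abcg1 Cmbl (0.093), Cpne7 (0.37) and Sucnr1 (0.38). Abca1 was closest to H2-K1, Igfbp6 and Dock3, Pltp to Pxmp4, Hopx and Hexim1, and Scarb1 to Srsf7, Ran and Chst7, at distances between 0.017 and 0.047. No member was among the 3 nearest of another. With 3 points a gene, many genes share a course by arithmetic alone, most of all those with small differences.

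Markers of fat cells were higher at day 21, and fewer of them passed 2-fold at day 3. The summed signal of 12 adipocyte markers, in units of the array's 75th percentile, went from 8.77 before induction to 40.4 at day 3 and 1263 at day 21, and 7, 11 and 12 of them were above background. Most of the day 3 sum came from Fabp4. Without the brightest marker of each array (Pparg at day 0, Fabp4 later) the sums were 3.38, 13.8 and 842. Cfd (adipsin) gave 46.8, 47.2 and 77159, and Adipoq (adiponectin), not above background at day 0, gave 60.5 at day 3 and 13987 at day 21. At day 3 against day 0, 3 of 7 measured fat cell markers were 2-fold higher (7.73% of all genes were), with a median log2 difference of 0.34. Fabp4 (19.0-fold) and Cebpa (7.25-fold) were among them, and 4 more were higher by a bound. Pparg (-0.21), Adig (0.15) and Slc2a4 (0.34) were under 2-fold, as was Cfd. The part of adipocyte RNA in the members' differences was not tested.

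Macrophages also express Apoe, Apoc1 and Abca1, and most of their listed markers were not above background. Of 17 macrophage markers 6, 5 and 7 were above background at day 0, day 3 and day 21. Their summed signal was 60.3, 54.0 and 86.8, most of it from Itgam, and 4.35, 6.29 and 6.05 without that gene. Ptprc, Adgre1, Spi1, Tyrobp, C1qa and C1qc were not above background on any array, and Trem2 and Aif1 were above it at day 21 alone. Csf1r gave 575, 799 and 627, and Cd14 was 4.65-fold and Lyz2 2.93-fold higher at day 21. Of 6 markers of liver cells, a main source of apolipoproteins in the body, 3 were above background on each array. Alb and Fgb were not on any, Apoa2 gave 1121, 1132 and 953, and Ttr reached 27.7 at day 21. Osteoblast markers divided. At day 21 Bglap2 was 11.9-fold, Spp1 6.67-fold and Mepe 5.67-fold higher. By bounds Ibsp was at least 63.7-fold, Alpl at least 29.1-fold, Phex at least 11.5-fold and Dmp1 at least 3.20-fold higher. Runx2 (-0.37), Col1a1 (-0.47) and Col1a2 (0.28) differed by less than 2-fold, and Sp7 and Sost were not above background on any array. The osteoblast sum, most of it from Col1a2, was 1073, 1385 and 1159. The part of osteoblast RNA in the members' differences was not tested. The sum over 6 smooth muscle genes fell from 3719 to 1305 and 598.

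**Figure D4:**
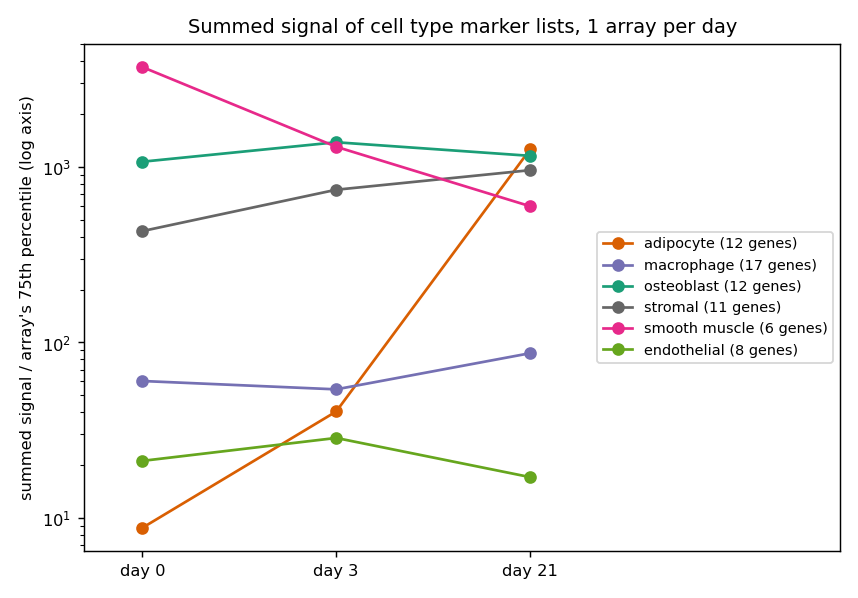
Summed signal of marker lists for 6 cell types (vertical log axis, in units of the array's 75th percentile) at day 0, day 3 and day 21, 1 array per day. The adipocyte sum climbs from 8.77 to 1263, and the smooth muscle sum descends from 3719 to 598. The macrophage sum, mostly Itgam, stays between 54.0 and 86.8, and the osteoblast sum, mostly Col1a2, between 1073 and 1385.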

How the data were processed

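Cy3-labelled RNA of 3 samples, 1 per group, was hybridised to 3 Agilent arrays. Agilent Feature Extraction made the deposited files of linear intensity per spot (version 10.10.1.1 per the file headers, 12.0 per the submitters' processing notes); per the file headers its processed signal had the background subtracted and a spatial trend removed, with no scaling between arrays. The deposited background marks and accessions, unit other, were used as given. The series' value table, also deposited, gave identical intensities (largest relative difference 0).

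Spots marked non-uniform or population outliers were left out (200, 115 and 146 of 59305), log2 was taken, each array's 75th percentile (172.2, 174.6 and 190.7) was subtracted, and spots of a probe were averaged. No spot was saturated. Probes were named by RefSeq accession without version; 26755 of 55664 matched. A gene took its probe with the highest mean. It was measured where at least 50% of spots were well above background on both arrays; otherwise the higher of the dim array's lowest signal above background and the probe's own signal set a bound. Calls were at least 2-fold, with no test, since each group had 1 array; the number of arrays limits the precision. On simulated data only the difference and the 2-fold rule were checked, not the scaling, the background marks or the bounds. Python 3.11.15, pandas 2.3.3, R 4.3.3 and limma 3.58.1 were used.

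The 8 members, the gene lists and the marker lists were chosen with earlier results of these data known. Named were all members, of each list the 4 measured genes with the largest difference at day 21 against day 0 and the 2 largest bounds, and the 3 genes nearest in course to each changed member; other names (Nr1h2, Mylip, Srebf1 and the neighbours of Apoe among them) were picked after their values were seen. Some listed genes are not reported here by name. Alternatives concerned background correction, scaling, probes per gene, spots left out, dim probes, the fold rule and the value table. Normexp was run on spot medians, a choice made after seeing the data.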

Additional observations from a re-analysis of the deposited data

How the results depend on the processing

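Across the 8 genes, 3 comparisons and the alternatives run, 177 member values stayed within 0.13 (the SD of repeated spots) of the reported value. Another 63 moved further and 0 changed sign. Of the list medians, 190 stayed and 80 moved. Some alternatives could move few member values or none. The value table held identical intensities, averaging a gene's probes could alter Scarb1 alone, and keeping marked spots added spots to Apoe alone. The count that stayed is therefore no measure of robustness. Counts of members here include bounds, so that the reported values are 6 higher members at day 3 against day 0, 6 at day 21 against day 0 and 5 at day 21 against day 3. The count of higher members at day 21 against day 0 was 6 or 7 in the alternatives run. Counts below over all genes and over the listed genes leave bounds out, so they are not on the same footing as the member counts. With normexp on spot medians, the median over the 8 genes was 0.796 (day 3 against day 0), 2.73 (day 21 against day 0) and 1.73 (day 21 against day 3), 3 members were higher at day 3 and 0 were lower at day 21 against day 3. Over all genes normexp called 582 higher and 550 lower at day 3 against day 0, and 613 higher and 466 lower at day 21 against day 3; of the listed genes it called 5, 9 and 4 lower in the 3 comparisons in that order, and 19 higher at day 21 against day 3. With spike-in scaling the median over the 8 genes was 0.847, 3.41 and 2.29, 3 members were higher and 1 lower at day 3, and 0 were lower at day 21 against day 3. Over all genes it called 506 higher and 3351 lower at day 3 against day 0, 3170 lower at day 21 against day 0, and 1573 higher and 456 lower at day 21 against day 3. Of the listed genes it called 10 higher and 27 lower at day 3, and 3 lower at day 21 against day 3. At day 21 against day 0 the median over the 8 genes was 3.85 when scaled on spots above background on all arrays and 3.83 with no scaling; at day 21 against day 3 it was 2.17 with quantile normalization. With no scaling 5 listed genes were lower at day 21 against day 3. The cause of these shifts was not tested.

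A 1.5-fold rule called 1854 higher and 2395 lower of all genes at day 3 against day 0, 2462 and 3938 at day 21 against day 0, and 1940 and 2494 at day 21 against day 3; it called 1 member lower at day 3, and 17, 22 and 15 listed genes lower in the 3 comparisons. A 3-fold rule called 497 and 314, 951 and 839, and 435 and 273 of all genes; 3 members were higher at day 3 and 0 lower at day 21 against day 3. Of the listed genes the 3-fold rule called 9 higher at day 3 and 15 higher at day 21 against day 3, and 3, 6 and 2 lower. The lists' median at day 21 against day 0 turned negative with spike-in scaling for the endocytic lipoprotein receptors (-0.10), the LXR, RXR and PPAR receptors (-0.0046) and the lipases and remodelling enzymes (-0.23). That of the lipases was also negative with median scaling (-0.029), the mean of a gene's probes (-0.049) and dim probes at the floor (-0.10). The median of the other apolipoproteins was -0.45 with dim probes at the floor.

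No paired analysis was possible because each group holds 1 array. No replicate was left out and no slide block was fitted, since neither leaves a value with 1 array per group. Normexp on mean signals was not run. Depth in the sense of reads does not apply; for Apoc1 and Abcg1 the signal over background at day 0 limits what the arrays can show.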
